A study of Mus musculus with 3 samples.

Results

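Binding of the nuclear receptors REV-ERB alpha and REV-ERB beta was examined at the genes of the positive limb of the circadian clock, Arntl (also called Bmal1), Clock and Npas2, in mouse liver chromatin. A peak was counted for a gene if the midpoint of its window lay in chr7:120330000-120480000 for Arntl, in chr5:76620000-76755000 for Clock or in chr1:39230000-39440000 for Npas2, all in the mm9 assembly. These windows held 16 of the 24461 REV-ERB alpha peaks and 9 of the 22097 REV-ERB beta peaks, 25 peaks in all. The data came from chromatin immunoprecipitation followed by sequencing (ChIP-seq), with 1 library for the REV-ERB alpha antibody, 1 for the REV-ERB beta antibody and 1 liver input made without antibody. All 3 came from livers of male C57BL/6 mice aged 20 weeks, given 3 days of 12 hours light and 12 hours dark and taken at zeitgeber time 8 (8 hours after lights on). No genotype, treatment or second time distinguished the libraries, so they show where tags lay at that hour and not a rhythm or a response. With a single library per antibody there was no spread between replicates and no test across animals. Whether either antibody also recognised the other receptor was not tested.

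The clock of mammalian cells is a feedback loop of transcription. ARNTL pairs with CLOCK or with its close relative NPAS2, and the pair binds E-box sequences and activates the Period and Cryptochrome genes and the genes of both REV-ERBs (Nr1d1 and Nr1d2). The REV-ERBs close a second loop: they bind as repressors to ROR elements, the hexamer AGGTCA with an A/T-rich stretch before it, and recruit the NCoR and HDAC3 corepressors. Arntl is the classical target of that repression, and Clock and Npas2 are known targets as well. In mouse liver, REV-ERB protein peaks during the later part of the light period.

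The promoter sequences of the 3 genes were read for these elements, because the Arntl promoter carries the known ROR elements through which the REV-ERBs act. RefSeq promoter windows (GRCm38.p6, 250 bases before to 50 bases after an annotated start) were found for 3 of 3 genes, with 2 windows for Arntl, 3 for Clock and 1 for Npas2. They are in another assembly than the peaks, and the peaks were not placed against them. The stretches below are 30 bases each, with the searched letters in capitals, on the gene's strand. The Arntl stretches lie at chr7:113207493-113207522 and chr7:113207529-113207558 on the plus strand, and the Clock stretch at chr5:76303604-76303633 on the minus strand.
Arntl, upstream element: ttggtcggaaaGTAGGTTAgtggtgcgaca
Arntl, downstream element: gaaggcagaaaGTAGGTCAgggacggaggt
Clock, hexamer on the other strand: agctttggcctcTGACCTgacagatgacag
In Arntl, the letters GTAGGTCA, a ROR element core, began at base 30 after the downstream of its 2 annotated starts. Either strand of 0.621% of the 32851 promoter windows in the table held these letters. The variant GTAGGTTA began 7 bases before the same start, and the first letters of both elements were 36 bases apart. The variant was searched for only after the Arntl sequence had been read, so the shares that involve it test nothing. It was held by 0.317% of windows, among them 2 of 2 for Arntl, which overlap and hold the same copy. Both motifs together occurred in 4 windows (0.012%), among them the window of the downstream Arntl start. The shorter hexamer AGGTCA, which overlaps the first of these motifs, was held by 16.3% of windows, among them 1 of 2 for Arntl and 1 of 3 for Clock. The Clock match began 119 bases before the start. On its own strand it is preceded by the bases printed after its capitals. They are not an A/T-rich stretch, so the match is to the hexamer alone. The hexamer GGGTCA (13.7% of windows), 2 copies of AGGTCA separated by 2 bases (0.00913%) and the E-box CACGTG (7.15%) were in no window of the 3 genes. The Npas2 window held none of the motifs.

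REV-ERB alpha peaks outnumbered REV-ERB beta peaks at Arntl and Npas2, and the Clock window held as many of each. The Arntl window held 6 alpha and 2 beta peaks, the Clock window 2 and 2, and the Npas2 window 8 and 5. The equal count at Clock did not hold when beta peaks below the lowest alpha score were left out (2 alpha and 1 beta) or with the window wider by 50 kb on each side (2 and 3). Of the 16 alpha peaks, 7 overlapped a beta peak by at least 1 bp (2 at Arntl, 1 at Clock and 4 at Npas2), against 57.8% of all alpha peaks on the 19 chromosomes that both lists cover. Of the 9 beta peaks, 7 overlapped an alpha peak, against 60.3% of the whole beta list. The share was thus 43.8% for alpha and 77.8% for beta, and with so few peaks neither is read as a departure from the list. Alpha peaks numbered 4 per 100 kb at Arntl, against 0.894 over chromosome 7, 3.81 at Npas2, against 0.840 over chromosome 1, and 1.48 at Clock, against 1.09 over chromosome 5. Beta peaks numbered 1.33, 2.38 and 1.48 per 100 kb at Arntl, Npas2 and Clock, against 0.839, 0.802 and 1.00 over the same chromosomes. Each number per 100 kb was thus above that of its chromosome. For beta at Arntl and for both lists at Clock it rested on 2 peaks. That is also the median of windows of the same length with at least 1 peak of either list.

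For comparison, the chromosomes were divided into consecutive windows of the same lengths, and those with at least 1 peak of either list were kept. At least 6 alpha peaks were found in 16.7% of windows of the Arntl length, and at least 2 beta peaks in 56.6%. The excess of alpha over beta peaks was compared in the same way, a measure added after the counts had been seen. An excess of at least 4, as at Arntl, was found in 2.60% of them. For the Npas2 length, 13.9% of windows had at least 8 alpha peaks, 28.8% at least 5 beta peaks and 8.53% an excess of at least 3 alpha peaks. For the Clock length, 57.2% had at least 2 alpha peaks, 55.1% at least 2 beta peaks and 66.6% at least as many alpha as beta peaks. The Clock window thus had a common number of peaks. At both Arntl and Npas2 the difference between the lists was less common than the number of peaks of either list. These shares describe the lists and test nothing.

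**Figure D1:**
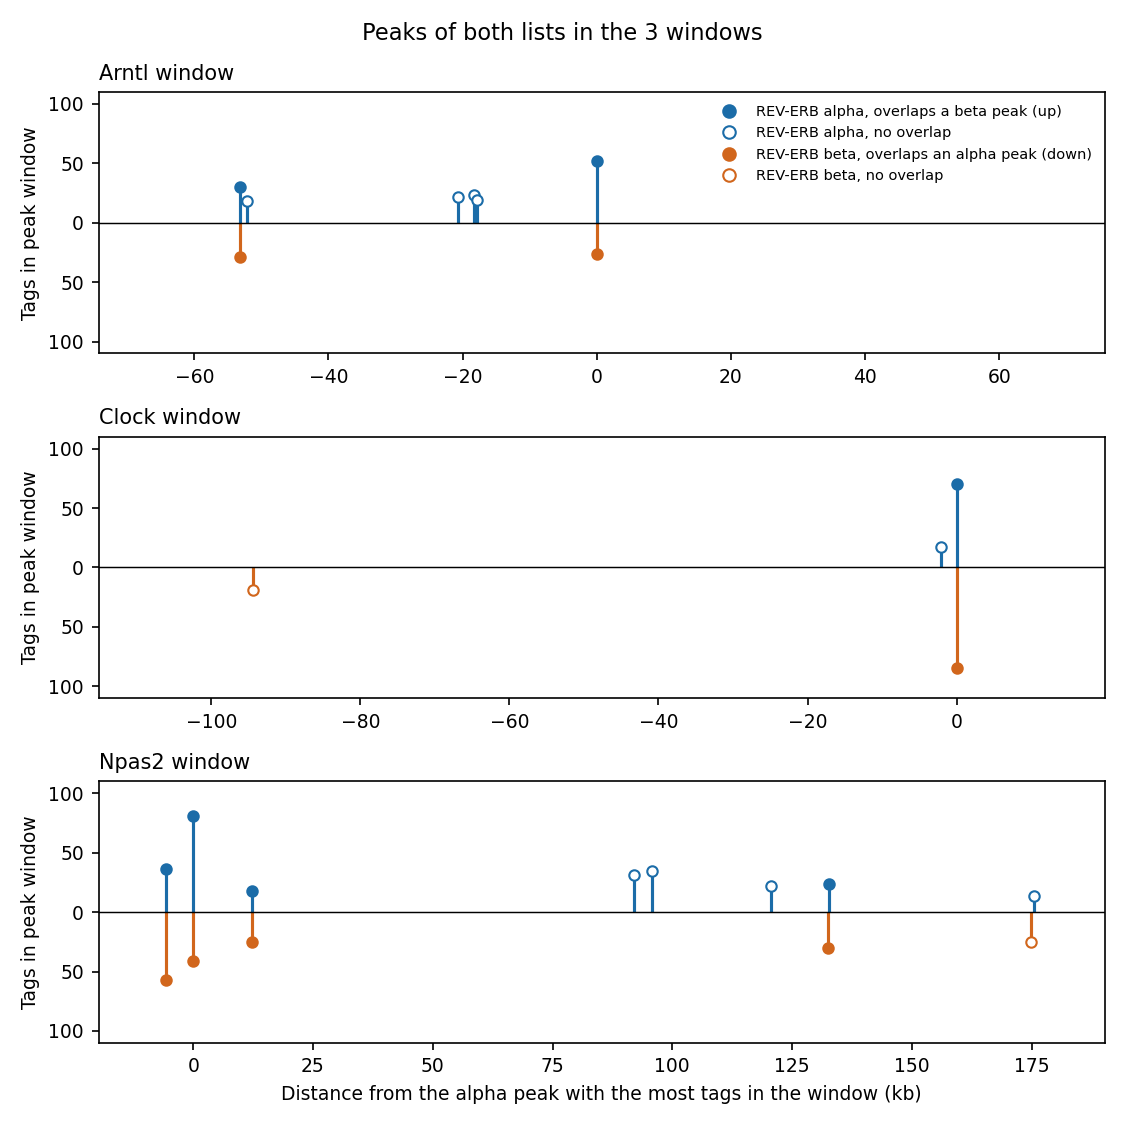
Peaks of both lists along the Arntl, Clock and Npas2 windows; the horizontal axis is the distance in kb from the alpha peak with the most tags in that window, and the height of each line is the number of tags in the peak window, upward for REV-ERB alpha and downward for REV-ERB beta. Filled points overlap a peak of the other list and open points do not; the 7 filled pairs stand at 2 places at Arntl, 1 at Clock and 4 at Npas2.

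At Arntl, which encodes the partner that both CLOCK and NPAS2 need, the receptors shared 2 sites whose alpha peaks lay 53173 bp apart. The first was an alpha peak at chr7:120351017-120351169 with 30 tags (95% exact Poisson interval 20.2 to 42.8, counting error only) and a beta peak at chr7:120350966-120351176 with 29 tags (19.4 to 41.6), each over 4 input tags. The centres of these peaks were 22 bp apart. The second, stronger in alpha, was an alpha peak at chr7:120404190-120404342 with 52 tags (38.8 to 68.2) and a beta peak at chr7:120404210-120404420 with 26 tags (17.0 to 38.1), each over 2 input tags. Here the alpha and beta intervals did not overlap, while at the first site they nearly coincided.

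The other 4 alpha peaks at Arntl had no overlapping beta peak and were lower, at 18 to 23 tags. One of them, at chr7:120352060-120352212 with 18 tags over 3 input tags, lay 1043 bp from the first shared alpha peak. The remaining 3 formed a group within 2946 bp between the shared sites. The highest of the group, at chr7:120385954-120386106, had 23 tags over 1 input tag, and the next, at chr7:120383436-120383588, had 22 tags over 1 input tag. The last, at chr7:120386382-120386534, had 19 tags over 2 input tags. No beta peak lay within 17857 bp of any of the 3. Their place in the alpha list was modest: 22.1% to 37.8% of the list had fewer tags. Of the alpha peaks in the same decile of the list by tags, 55.7% were shared for the highest, 44.1% for the next and 34.8% for the last. Beta tags at alpha peaks without a beta peak are not in the lists, so these sites lack a beta peak and are not shown to lack beta binding. The tags in the 10 kb around each of the 6 alpha peaks numbered 225 to 269, all above the median of 203 in the alpha list. The peaks of the group, and the pair 1043 bp apart, share most of their 10 kb, so these are not 6 separate surroundings. Around the beta peaks the tags numbered 196, close to the beta median of 198, and 125, below it.

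At Clock, which encodes the histone acetyltransferase partner of ARNTL, most of the signal was at a single shared site. The alpha peak at chr5:76735043-76735195 had 70 tags (54.6 to 88.4) and the beta peak at chr5:76735021-76735231 had 85 tags (67.9 to 105), each over 4 input tags. Their centres were 7 bp apart, the closest of the 7 shared sites. This was the beta peak with the most tags in the 3 windows, and 83.4% of the beta list had fewer; for the alpha peak it was 89.8% of its list. The shared site held 80.5% of the alpha peak tags and 81.7% of the beta peak tags of the window. The second alpha peak, at chr5:76732985-76733137, lay 2058 bp away and had 17 tags over 3 input tags. The second beta peak was at the other side of the window, at chr5:76640623-76640833, with 19 tags over 4 input tags, and the nearest alpha peak was 92333 bp from it. Both of these had the lowest score of their list.

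At Npas2, which encodes the CLOCK-related partner of ARNTL, 4 shared sites were found, 3 of them within 18002 bp and the fourth 120275 bp farther on, counted between alpha centres. The strongest alpha peak of the 3 genes lay in the group of 3, at chr1:39249658-39249810, with 81 tags (64.3 to 101) over 6 input tags. Its beta partner at chr1:39249592-39249802 had 41 tags (29.4 to 55.6) over 8 input tags, the highest input of the 25 peaks. As at the second Arntl site, the alpha interval lay above the beta interval. At the neighbouring site, the alpha peak at chr1:39244005-39244157 had 36 tags (25.2 to 49.8) over 1 input tag. The beta peak at chr1:39243946-39244156 had 57 tags (43.2 to 73.9) over 4 input tags. More beta than alpha tags was the usual order, since the median ratio of alpha to beta over all shared pairs was 0.688. This site was near that median, at log2 -0.12 from it. Its larger beta count was not seen in unique positions: the 57 beta tags stood at 28 of them, and the 36 alpha tags at 29.

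The third shared Npas2 site was an alpha peak at chr1:39262007-39262159 with 18 tags over 0 input tags and a beta peak at chr1:39261967-39262177 with 25 tags over 1 input tag. The fourth, deeper in the window, was an alpha peak at chr1:39382282-39382434 with 24 tags over 5 input tags and a beta peak at chr1:39382200-39382410 with 30 tags over 2 input tags. The counting intervals of alpha and beta overlapped at both sites (10.7 to 28.4 against 16.2 to 36.9, and 15.4 to 35.7 against 20.2 to 42.8).

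Npas2 also had the strongest alpha peaks without a beta partner. These lay 3720 bp apart, at chr1:39345418-39345570 with 35 tags over 5 input tags and at chr1:39341698-39341850 with 31 tags over 3 input tags. The nearest beta peaks were 36811 and 40531 bp away. In the alpha list without chromosome 8, 71.1% and 63.9% of the peaks in the same deciles by tags had a beta partner. Another, at chr1:39370313-39370465, had 22 tags over 0 input tags. Toward the end of the window, an alpha peak at chr1:39425090-39425242 with 14 tags over 1 input tag and a beta peak at chr1:39424497-39424707 with 25 tags over 3 input tags did not overlap, and their centres were 564 bp apart. Both had the lowest score of their list.

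Relative to the other shared sites of the genome, 2 of the 7 leaned to alpha by at least 2-fold and none leaned to beta. Because the ratio of alpha to beta tags also depends on sequencing depth, window size (153 bp for alpha, 210 bp for beta) and repeated tags, it was set against its median of 0.688 over 13314 shared pairs. At least 2-fold above that median were 8.40% of all pairs, and at least 2-fold below it 9.71%. The second Arntl site had a ratio of 2, which was 2.91-fold above the median (log2 1.54, exact Clopper-Pearson interval 0.83 to 2.28). The 81-tag Npas2 site had a ratio of 1.98, which was 2.87-fold above the median (log2 1.52, 0.96 to 2.10). Each was above 98.1% and 98.0% of all shared pairs, in that order. At the other 5 sites the interval held the median: the log2 values were 0.59 at the first Arntl site, 0.26 at Clock, and -0.12, 0.07 and 0.22 at the remaining Npas2 sites. The intervals cover counting error between these libraries and no variation between animals, and tags at the same position need not be independent molecules.

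**Figure D2:**
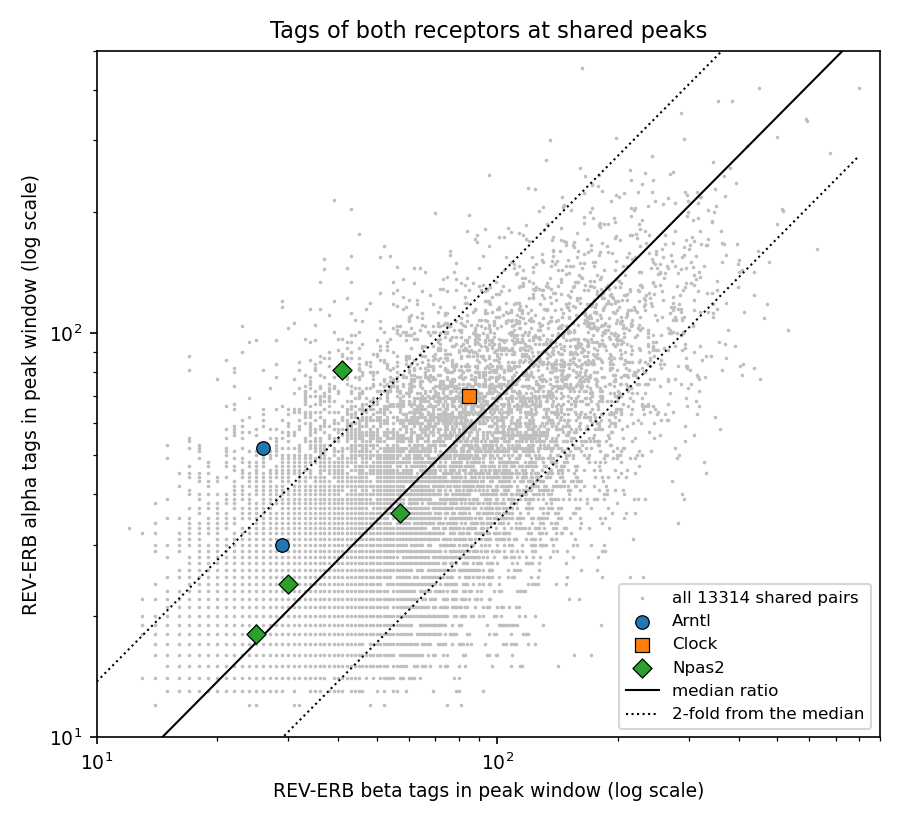
Tags of REV-ERB beta (horizontal, log scale) and REV-ERB alpha (vertical, log scale) in the peak windows of all 13314 shared pairs in grey, with the 7 pairs of the 3 loci marked by gene. The solid line is the median ratio of 0.688 and the dotted lines are 2-fold from it; 1 Arntl pair and 1 Npas2 pair lie above the upper dotted line and none below the lower.

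At both sites that leaned to alpha, the surrounding chromatin had more alpha tags too. Outside the peak window, the 10 kb around the second Arntl site held 1.86 times as many alpha as beta tags, and that around the 81-tag Npas2 site 1.76 times as many, against a median of 1.02 over all shared pairs. The same ratio was above 1 at all 7 sites, and it was above 1 for 51.6% of all shared pairs. It was 2.12 at the fourth Npas2 site, whose peak ratio was near the median, 1.54 at the first, 1.30 at the third, 1.19 at the first Arntl site and 1.11 at Clock. Sites of 1 locus can share these surroundings, and the first Npas2 sites, 5653 bp apart, did. When the density of tags in the peak was divided by that of the rest of the 10 kb, the log2 ratio, relative to its own median, became 0.68 at the second Arntl site and 0.74 at the Npas2 site, so neither passed 2-fold. With unique positions in place of tags both passed, at 1.19 and 1.22. With tags plus 1 over input tags plus 1 they also passed, at 1.18 and 1.53, and the fourth Npas2 site then leaned to beta, at -1.10, with 5 alpha and 2 beta input tags behind it. The part of the surrounding tags in the alpha lean was not tested further.

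**Figure D3:**
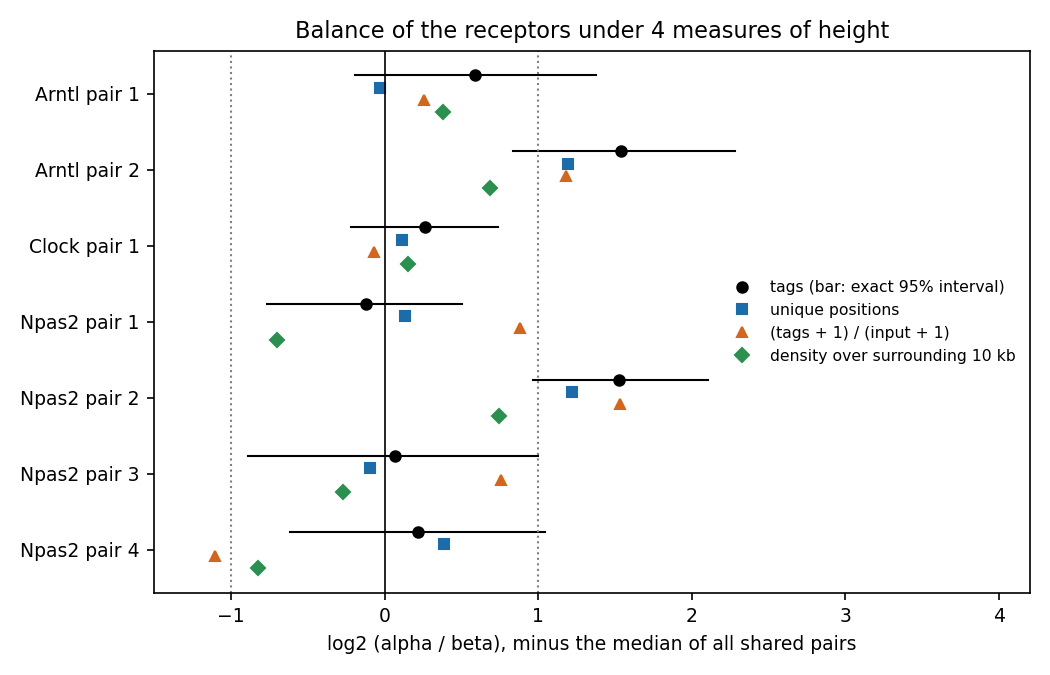
The log2 ratio of alpha to beta at the 7 shared pairs (numbered along each window), minus the median of all shared pairs, under 4 measures of peak height; the bar is the exact 95% interval of the tag ratio, for counting error only, and dotted lines mark 2-fold. Arntl pair 2 and Npas2 pair 2 lie beyond 2-fold with tags, unique positions and input-corrected tags, and within it with density over the surrounding 10 kb.

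By tags in the window, the highest alpha peak, at Npas2, was above 92.8% of its list and the highest beta peak, at Clock, above 83.4%. The alpha peaks had a median of 23.5 tags, against 27 in the whole list, and 7 of the 16 were above the list's median; the highest ranked 1720 of 24461. The beta peaks had a median of 29 tags, against 39, and 3 of the 9 were above the list's median; the highest ranked 3609 of 22097. Measured as tag density over the rest of the surrounding 10 kb, a setting added for this count after the values had been seen, 6 of 16 alpha members and 5 of 9 beta members were above their list's median. Those 5 were the shared beta peak at Clock (19.6-fold over its surroundings) and all 4 shared beta peaks at Npas2 (13.2 to 38.5), against a list median of 12.3. By unique positions, 7 of 16 alpha and 4 of 9 beta peaks were above their list's median. By tags plus 1 over input tags plus 1, 8 and 4 were. With so few peaks, none of these counts is read as a departure from the list. The highest peaks of the lists had 456 alpha and 801 beta tags. The Clock site was the only one of the 7 at which both receptors were above 80% of their list. The shared alpha peaks had 18 to 81 tags (median 36) and the alpha peaks without a partner 14 to 35 (median 22), so the ranges overlapped. In the alpha list without chromosome 8 the medians were 35 and 20. The shared beta peaks had 25 to 85 tags, and the beta peaks without a partner 19 and 25.

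The peaks without a partner included the weakest by the authors' peak score. Both such beta peaks, 1 at Clock and 1 at Npas2, had the lowest score of the beta list, 12, a score held by 5.98% of that list. Among the 9 alpha peaks without a partner, 2 had the lowest alpha score, 14, held by 9.61% of that list; no shared peak of the 3 loci was at the lowest score of its list. Tags over input, with 1 added to both, ranged from 4.17 to 23 for the alpha peaks and from 4 to 17.2 for the beta peaks, around list medians of 9 and 10. Mean input was 2.56 tags at the alpha peaks and 3.56 at the beta peaks, close to 2.66 and 3.59 over the lists. Tags per unique position reached 1.27 at most among the alpha peaks and 2.04 among the beta peaks, with list medians of 1.17 and 1.60.

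**Figure D4:**
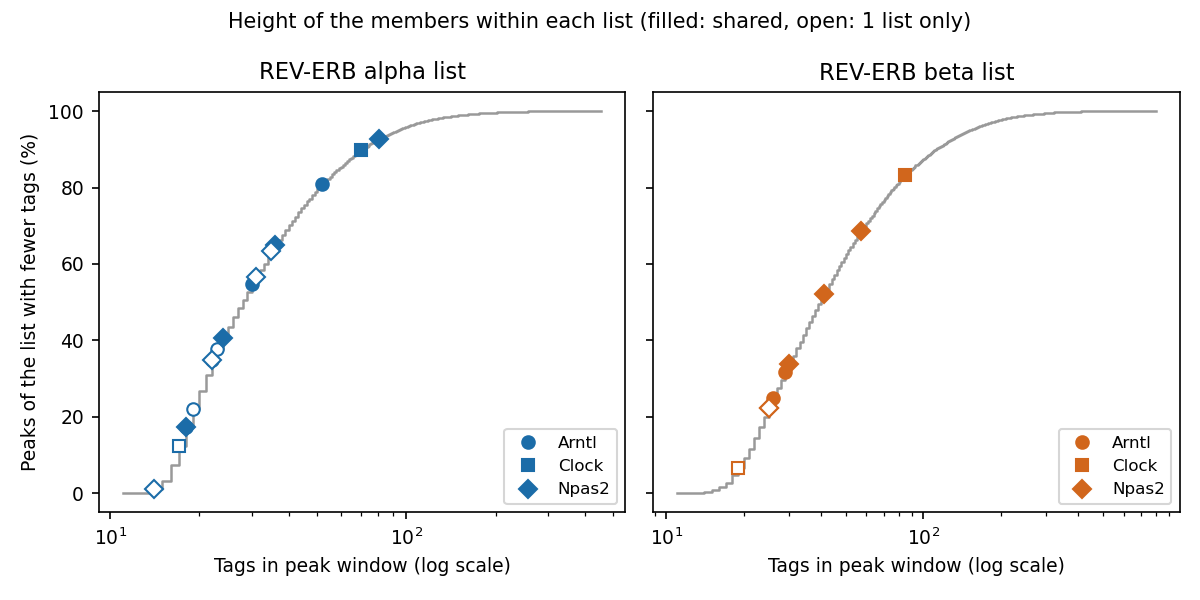
Percent of each list with fewer tags (vertical) against the tags in the peak window (horizontal, log scale) for the REV-ERB alpha list on the left and the REV-ERB beta list on the right; grey lines are the whole lists, filled symbols are shared peaks and open symbols peaks of 1 list only. The peaks run from near the bottom of both lists up to 92.8% of the alpha list (Npas2) and 83.4% of the beta list (Clock).

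Which part of a gene each peak lies in was not determined, since no mm9 gene annotation was used here. In the order of protein-coding genes of the GRCm38.p6 annotation, Arntl stands between Rassf10 and Btbd10, Clock between Tmem165 and Pdcl2, and Npas2 between Pdcl3 and Rpl31, and a peak near a window's edge may lie closer to such a neighbour. Peaks near the other clock genes were not counted for the same reason.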

How the data were processed

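The authors deposited 1 peak list per antibody, and the input has no list of its own. Per the submitters' processing notes, Bowtie (an aligner) and HOMER (a peak caller) were used with the mm9 assembly; no source used here gives versions, filters or library totals. Per the labels' protocols, chromatin was fixed for 30 minutes in 2 mM disuccinimidyl glutarate and 10 minutes in 1% formaldehyde. Per the file headers, the lists hold raw tag counts in a fixed window (all tags, unique positions, input) and in 10000 bp around the peak; these deposited counts are not scaled to depth. The deposited peak score is the authors' own and is used only within its list. The deposited false discovery rate, read as a q-value, was 0 throughout and not used.

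Members were all peaks centred in the 3 windows. Every shared pair and the 2 highest peaks without a partner per window and list were to be named; the others are named too, since there are few. Members, lists and settings were chosen with earlier results of these data known. Peaks were shared with at least 1 bp of overlap, each with its nearest partner. With 1 library per antibody, 2-fold from the median ratio stood in place of a test. Intervals are 95% exact intervals. Chromosome 8 has 0 beta peaks in the list as used here. It stayed out of shares of alpha peaks, of the list medians of alpha peaks with and without a partner, and of the consecutive windows. Matching and ratios were run on simulated data with planted changes larger than 2-fold and without repeated tags. That run does not check calls near 2-fold in these lists. Computations ran in Python 3.11.15 with scipy 1.17.1, and tables were handled with pandas 2.3.3 and numpy 2.4.6.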

Additional observations from a re-analysis of the deposited data

How the results depend on the processing

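Under 12 alternatives, 25 of 32 counts over the 3 windows and 39 of 54 counts of single windows stayed within 1.5 times, and 23 of 28 ratios of single pairs stayed within their counting interval. The 7 shared sites were 7 with an overlap of 50% of both peaks, with centres within 100 or 500 bp, and with a common lowest score. They became 4 with tags at least 8 times the input, and 3 in the top 50% of each list, where 7 alpha and 3 beta peaks remained in the windows; these settings shorten the lists. Shared Arntl sites, 2 in all, became 1 and 0 under these, and shared Npas2 sites became 2 under both; the Clock site was shared in every setting. Windows wider by 50 kb on each side held 19 alpha and 13 beta peaks, with 8 beta peaks at Npas2 in place of 5, and windows narrower by 10 kb held 16 and 9. The 2 sites that leaned to alpha by 2-fold became 0 with density over the surrounding 10 kb and were 2 under the other 3 measures or centres; sites that leaned to beta became 1, in place of 0, with tags over input. Beta peaks above the list's median height became 5, in place of 3, with density over the surrounding 10 kb, a setting added after the data were seen. No paired analysis was possible because neither group has more than 1 library, and none could be left out. Peaks of 14 to 30 tags carry wide counting intervals, and no source used here gives the total depth.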
